A study of Homo sapiens with 4 samples.

Results

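Ribosomal protein pseudogenes are copies of the genes for the proteins of the cytosolic ribosome. The set described here was chosen by name and by count. Genes were taken whose symbol begins with RPL or RPS and a digit and ends in P and a number, that GENCODE does not annotate as protein-coding, and that had at least 20 counts summed over the 4 libraries. Of 60675 annotated genes, 1507 carried such a name, of which 815 had no count, 558 had 1 to 19 counts and 134 reached the minimum. These 134 members comprised 118 processed pseudogenes, 13 transcribed processed pseudogenes, 2 transcribed unprocessed pseudogenes and 1 unprocessed pseudogene, from 57 parent genes. The summed counts therefore chose the members, and the levels themselves are given as a description.

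LNCaP is an established, androgen-responsive line of human prostate cancer cells that came from a lymph node metastasis. Cells grown in hormone-depleted serum received 1 nM R1881, a synthetic androgen, for 72 h together with either vehicle (DMSO) or 50 µM CPI-455, an inhibitor of the KDM5 enzymes, which remove methyl groups from lysine 4 of histone H3. There were 2 libraries in each group. All 4 libraries carried R1881, and all came from 1 cell line. The labels do not say that the replicates were separate cultures, so the p-values measure the spread between these libraries. The comparison addresses how KDM5 inhibition changed transcript levels in androgen-treated cells, and all fold changes below are CPI-455 over vehicle, so that a positive value is a higher level with CPI-455.

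A processed pseudogene arises when a spliced mRNA is copied back into DNA and inserted elsewhere in the genome, usually without introns and without the promoter of its parent. Ribosomal protein genes are short and strongly expressed in most cells, and they have left many such copies in the human genome. Some copies are transcribed, by a promoter near the insertion or as part of a longer transcript in which they lie. In short-read data the copies are measured only as far as their sequence can be told from that of the parent mRNA.

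Sequences of 60 bases are shown first, because likeness to the parent sets what could be counted. They are the GRCh38 sequence of the pseudogene on its own strand and the matching stretch of a GENCODE 44 transcript of the parent, with the bases that differ in capitals.
RPS28P7 (ENSG00000227097) is shown at chr11:82689559-82689618, plus strand, because none of its bases differed from coding bases 1 to 60 of RPS28.
RPS28P7: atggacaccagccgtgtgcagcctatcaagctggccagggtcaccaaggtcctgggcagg
RPL29P14 (ENSG00000241112) had no count in either vehicle library and the largest fitted difference between the groups. It is shown at chr5:149545518-149545577, minus strand, beside coding bases 270 to 329 of RPL29, with 8 differences.
RPL29P14: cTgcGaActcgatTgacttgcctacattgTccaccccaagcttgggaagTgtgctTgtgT
RPL29: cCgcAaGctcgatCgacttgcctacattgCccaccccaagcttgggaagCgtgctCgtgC
RPL19P6 (ENSG00000233597), another member that was almost absent with vehicle, is shown at chr3:142044103-142044162, minus strand, beside coding bases 37 to 96 of RPL19, with 7 differences.
RPL19P6: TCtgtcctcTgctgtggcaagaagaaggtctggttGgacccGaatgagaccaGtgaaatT
RPL19: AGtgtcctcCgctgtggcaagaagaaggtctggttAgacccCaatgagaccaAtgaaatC

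The libraries differed in depth, with 19623553 and 20690819 counts on genes with vehicle, against 9522920 and 5401588 with CPI-455. A count of 3, taken as the limit that a count of 0 allows, was worth 0.137 to 0.142 CPM (normalized counts scaled to library size) under vehicle and 0.337 to 0.595 CPM under CPI-455, for counting error only. All 9 luminal and LNCaP markers were above 1 CPM in every library, and their sum lay at 883 to 957 CPM in the vehicle libraries and at 383 to 438 CPM after CPI-455. The 3 basal markers summed to 0.189 to 0.275 CPM with vehicle and 1.19 to 1.24 CPM after CPI-455, with KRT5 at 0 throughout, and the 3 leukocyte markers to 0.137 to 0.331 CPM and 1.24 to 2.38 CPM. The 4 stromal markers summed to 16.8 to 21.5 CPM and 16.3 to 21.2 CPM, and the neuroendocrine markers to 20.3 to 21.2 CPM and 20.4 to 35.3 CPM. MALAT1, a nuclear noncoding RNA, took 0.0884% to 0.114% of the counts with vehicle, against 4.95% and 6.49% with CPI-455, and mitochondrial genes took 1.91% to 2.43% and 0.967% to 1.24%. Both shares and the luminal sum moved with the treatment. The basal and leukocyte sums were also higher, but they rest on few counts, beside a 3-count limit of 0.337 to 0.595 CPM under CPI-455. The part of all these in the values below was not tested.

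Most of the pseudogenes had a higher level with CPI-455, as did most of their parents. Of the 134 members, 107 had a fold change above 0 and 27 below 0 in a fit without a filter on low counts, with a median log2 fold change of 1.17. In bulk RNA, more cells with a transcript and more transcript per cell cannot be told apart. Both CPI-455 libraries lay above both vehicle libraries for 84 members and below both for 12, where the background over genes with at least 20 counts was 37.1% above and 42.0% below. With the filter, 104 members were tested with edgeR's quasi-likelihood test and Benjamini-Hochberg adjustment over 17600 genes. A gene was called at an adjusted p under 0.05 and a change of at least 2-fold, and 45 members were called higher (43.3% of those tested, against 21.0% of all genes) and 4 lower (3.85%, against 21.3%). Their median was 1.23, with quartiles of 0.29 and 2.28, and the median of all tested genes was −0.04. The filter itself shaped this count, since 32 tested members passed it only through the CPI-455 libraries and 3 only through the vehicle libraries, and such members had to differ. Of the other 69, 18 were called higher and 1 lower. Of the 45 members with at least 100 counts, 18 were called higher and 1 lower, with a median of 0.94. Without vehicle replicate 1 the test called 21 members higher and without vehicle replicate 2 it called 23.

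This difference moved with exon length. The exons of a member had a median length of 537 bases, against 4063 over all genes with at least 20 counts, and other genes of such length were also higher with CPI-455. There were 812 other tested genes whose exon length lay in the middle range of the members, 413 to 786 bases. They had a median of 1.32, and 372 of them were called higher and 63 lower. Only 62 of the 812 were protein-coding, with a median of 0.80, 24 called higher and 9 lower, so gene type differed as well. When the dependence on exon length and exon GC was smoothed and taken out of each library, the median of the members turned to −0.06. Of the 104 tested members, 18 were then called higher and 16 lower, beside 3618 and 3263 of the 17600 tested genes. Neither share of the members was larger than that of all genes. The parents, whose exons are longer, kept a median of 1.12. Whether the length trend belongs to the libraries or to the treatment cannot be told apart with these groups, so the direction of the pseudogenes as a set rests on leaving it in.

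The parents were measured far more deeply. Summed over the 57 parents, the level was 52411 and 55217 CPM with vehicle, against 112055 and 110949 CPM with CPI-455. Of these 57 genes, 38 were called higher and 0 lower, with a median log2 fold change of 1.30. The same test called 51 of 79 listed cytosolic ribosomal protein genes higher and 0 lower. Of the 22 among them that were not the parent of a member, it called 13 higher. Among the large-subunit pseudogenes, 68 were tested, of which 32 were called higher and 4 lower, and the median was 1.32. Among the small-subunit pseudogenes, 36 were tested, of which 13 were called higher and 0 lower, and the median was 1.17. The parents of both subunits had similar medians, 1.30 for 34 large-subunit genes and 1.22 for 23 small-subunit genes.

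A single pseudogene held most of the counts. RPS2P5 (ENSG00000240342) lies at chr12:118246084-118246962 on the plus strand, in a span where TAOK3, a protein kinase gene, runs on the minus strand. It had 16570 and 19811 counts with vehicle, against 7238 and 3722 with CPI-455. These counts were 67.4% and 68.3% of all counts on members with vehicle, and 49.4% and 48.7% with CPI-455. On the CPM scale its levels were 784 and 907 with vehicle, against 814 and 738 with CPI-455, so the groups overlapped and the pseudogene was not called (log2 fold change −0.12 ± 0.11 SE, adjusted p = 0.372, edgeR quasi-likelihood test). With the length and GC trend removed it was called lower, at −1.31. Without RPS2P5 the members summed to 379 and 421 CPM with vehicle, against 832 and 776 CPM with CPI-455. Of the 1373 pseudogenes of this kind below the minimum, 815 had no count. Their sum was 30.8 and 29.5 CPM with vehicle, against 89.9 and 101 CPM with CPI-455. Fewer of them were detected in the shallower CPI-455 libraries, 249 and 161, against 299 and 299 with vehicle.

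Its parent RPS2, a small-subunit protein near the channel where mRNA enters, had 87828 and 95212 counts with vehicle, against 52286 and 26526 with CPI-455. RPS2P5 thus gave 18.9 and 20.8 counts per 100 counts of RPS2 with vehicle, against 13.8 and 14.0 with CPI-455. The other measured RPS2 copies behaved alike. RPS2P46, which lies inside a noncoding gene on chromosome 17, had 1667 and 2002 counts with vehicle, against 899 and 403 with CPI-455, with overlapping CPM levels. All 5 tested RPS2 pseudogenes had a log2 fold change between −0.12 and 0.35, none was called, and none exceeded the 0.39 of RPS2. With the length and GC trend removed RPS2P46 was at −1.10 and RPS2 at 0.079, so these copies then lay well below the parent.

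**Figure D1:**
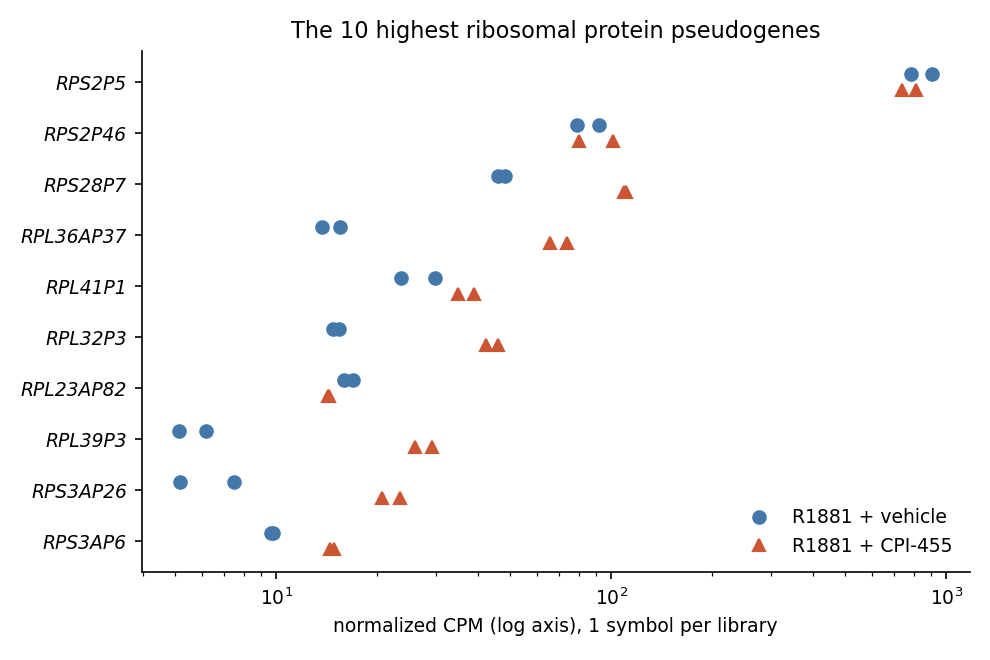
Levels of the 10 members with the highest mean CPM, on a log axis in CPM, with 1 symbol per library (circles, R1881 with vehicle; triangles, R1881 with CPI-455). RPS2P5 lies between 738 and 907 CPM in all 4 libraries, and the RPS28P7 symbols of the groups do not overlap, at 45.9 and 48.0 CPM against 109 and 111 CPM.

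Per kilobase of exon the order of levels differed from that of the counts. RPS2P5 was highest with vehicle, at 962 CPM per kilobase, and stood at 883 with CPI-455. RPL41P1, a copy of the shortest ribosomal protein mRNA with an exon of 81 bases, reached 328 and 456 CPM per kilobase. RPS28P7 reached 224 and 523. RPL36AP37 reached 45.5 and 217. These levels are means of 2 libraries, and the counts of each library are given with the results below.

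The ratio of pseudogene to parent counts was taken within each library. RPS28P7 lies on the plus strand of chromosome 11 in the span of the minus-strand noncoding gene MIR4300HG. It had 970 and 1049 counts with vehicle, against 968 and 559 with CPI-455. It rose with a log2 fold change of 1.22 ± 0.12 (adjusted p = 2.45e-05, edgeR quasi-likelihood test), and RPS28 itself rose by 1.17. Per 100 counts of RPS28 it gave 15.9 and 16.2 counts with vehicle, against 15.6 and 18.0 with CPI-455, so the ratio overlapped between the groups. RPS28P7 is identical to RPS28, so the ratio cannot tell a copy that moved with its parent from parent fragments counted for the copy. With the length and GC trend removed RPS28P7 was at −1.39 and RPS28 at 0.80.

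RPL39P3, also identical to its parent, had a ratio in a narrow range. RPL39 lines the tunnel through which the new protein leaves the large subunit, and RPL39P3 lies at chr6:73373108-73373263. It had 130 and 112 counts with vehicle, against 231 and 147 with CPI-455, and it rose by 2.28 ± 0.22 on the log2 scale (adjusted p = 2.33e-05, edgeR quasi-likelihood test), beside 2.33 for RPL39. Per 100 counts of RPL39 the values were 2.66 and 2.68 with vehicle, against 2.56 and 2.62 with CPI-455. With the trend removed RPL39P3 was at −0.02 and RPL39 at 2.29. RPL32P3 gave 1.91 and 1.69 per 100 counts of RPL32 with vehicle, against 1.90 and 1.79 with CPI-455, and it rose by 1.55 beside 1.51. RPL32P3 is no simple copy, however. It has 7 exon blocks and 4504 exon bases, of which 10.9% aligned to RPL32.

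The counts of RPL36AP37 rose less than those of its parent. RPL36A, a large-subunit protein at the exit site for tRNA, had 502 and 421 counts with vehicle, against 2528 and 1276 with CPI-455, a log2 fold change of 3.64. For a parent this level was low, at 23.8 and 19.3 CPM with vehicle, where RPL39 had 231 and 192. Fragments that overlapped several genes were left out of the counts. The share of RPL36A fragments lost in this way was not tested, and the ratio below depends on it. RPL36AP37, an identical copy inside PLEKHA7, had 290 and 338 counts with vehicle, against 582 and 371 with CPI-455, and rose by 2.25 ± 0.16 (adjusted p = 3.56e-06, edgeR quasi-likelihood test). Its ratio was 57.8 and 80.3 per 100 counts of RPL36A with vehicle, against 23.0 and 29.1 with CPI-455, with no overlap. Its call was lost with the length and GC trend removed, at 0.35. RPL41P1 had 496 and 649 counts with vehicle, against 347 and 176 with CPI-455, which is 3.30 and 4.49 per 100 counts of RPL41 against 1.79 and 1.53.

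The 6 members that were 100% identical to a parent transcript over their whole exon were RPL21P16, RPL36AP37, RPL39P3, RPL41P1, RPL41P5 and RPS28P7. No window of 50 bases in them was absent from the parent transcripts, so the sequence alone cannot place a fragment in the pseudogene or in the parent. Fragments that aligned to several places were not counted, and the share of parent fragments among the counts of these 6 was not tested. Of the 6, all but RPL41P1 were called higher. After removal of the length and GC trend RPS28P7 stood at −1.39, RPL41P1 at −2.41, RPL41P5 at −0.29 and RPL39P3 at −0.02, so the direction of these short copies turned.

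**Figure D2:**
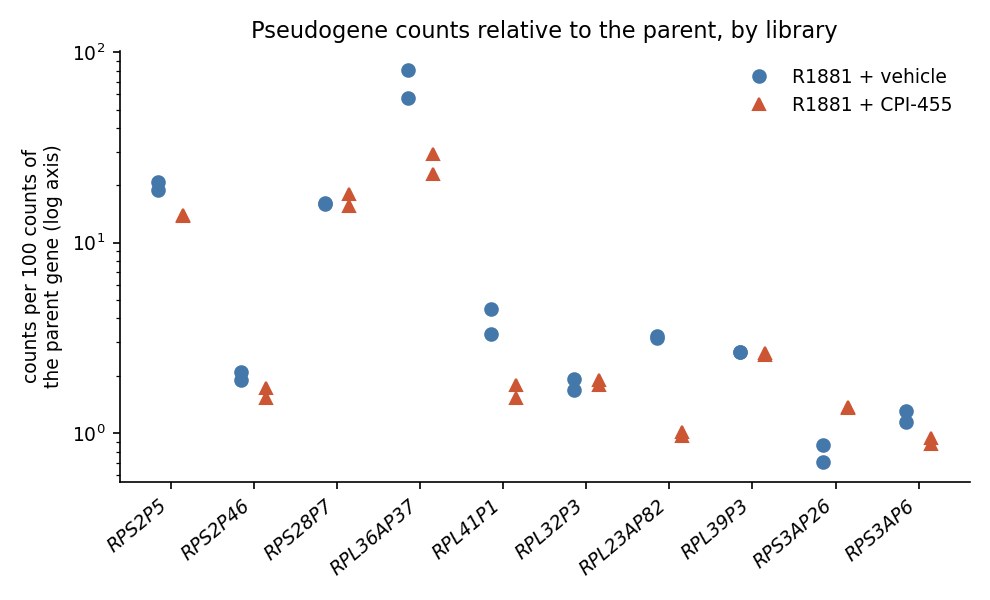
Counts of the 10 highest members per 100 counts of the parent gene, on a log axis, with 1 symbol per library (circles, R1881 with vehicle; triangles, R1881 with CPI-455). The symbols of RPS28P7 lie between 15.6 and 18.0 in all libraries, and those of RPL36AP37 separate, at 57.8 and 80.3 against 23.0 and 29.1.

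Across all pairs the pseudogenes followed their parents only loosely. Both genes were tested in 104 pairs from 51 parents. The pseudogene's log2 fold change lay above the parent's in 49 pairs and below it in 55, the median difference was −0.07 with quartiles of −0.68 and 0.92, and 61 pairs were within 1 unit. The Pearson correlation over the 104 pairs was 0.20 and the Spearman correlation 0.31. These describe genes of the same 4 libraries, several of them with a shared parent, and carry no test. With the length and GC trend removed the median difference was −1.32.

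With the length and GC trend left in, likeness to the parent went with likeness of the change. The aligned part of a member was 71.8% to 100% identical to its parent, with a median of 95.2%, and the members were split by this identity into 3 groups of nearly equal size, at 91.0% and 98.1%. Among the 38 tested members above 98.1% the median absolute difference from the parent was 0.42, and the Pearson correlation with the parent was 0.69. Among the 32 in between, these values were 0.86 and 0.11. Among the 34 least similar, they were 1.90 and 0.08. Over all pairs identity and absolute difference had a Spearman correlation of −0.56. The filter differed along this order, since 3 of the 38, 12 of the 32 and 17 of the 34 had passed it only through the CPI-455 libraries. With the trend removed the most similar members had a median of −0.45, beside 1.12 for all 57 parents, so they then lay well below the parents.

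The least similar members had the highest median, 2.48, with 21 called higher and 3 lower. The middle group stood at 1.30 (10 called higher, 1 lower), and the most similar members had 1.17, with 14 and 0. In this order the shares called higher were 61.8%, 31.25% and 36.8% of those tested, against 21.0% of all tested genes. The shares called lower were 8.8%, 3.1% and 0%, against 21.3%. With the trend removed the medians were 1.25, −0.11 and −0.45, so the order remained and the sign of the latter medians turned. In the group of least similar members, 17 had passed the filter only through the CPI-455 libraries.

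**Figure D3:**
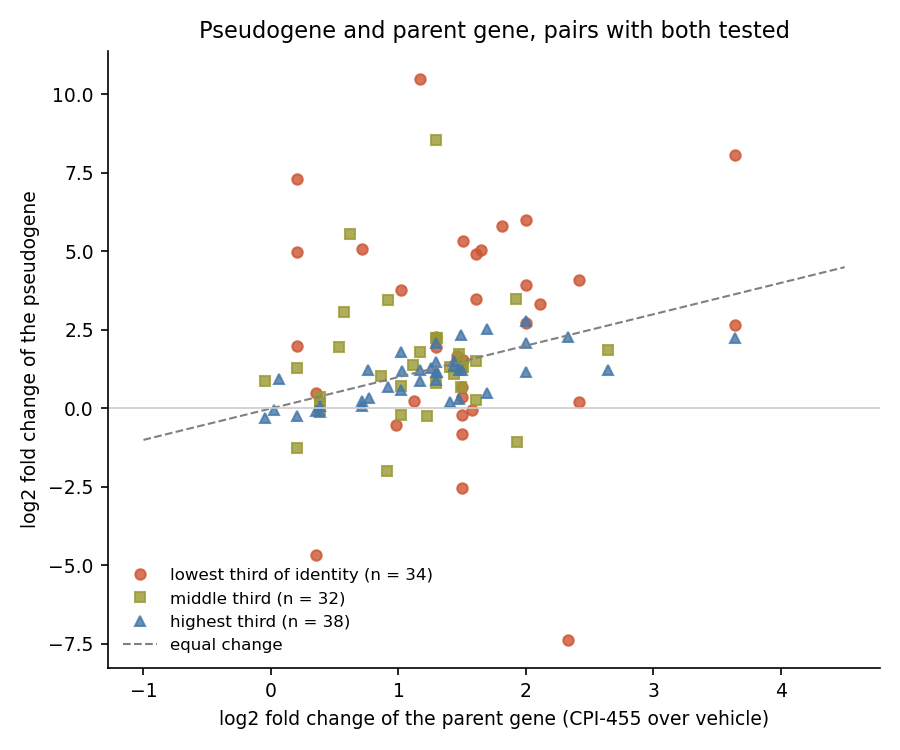
Log2 fold change (CPI-455 over vehicle) of each tested pseudogene against that of its parent, for 104 pairs, with symbols for the 34 least, 32 intermediate and 38 most similar members and a dashed line where both changes are equal. The most similar members lie near the line and the least similar ones scatter widely, and the 5 members at 0 in a group are drawn at fitted values that are not bounds.

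Position in the genome separated the members further. Of the 134, 48 lay between genes, 35 inside another gene on its strand, 37 inside another gene on the opposite strand, and 14 shared exon bases with another gene. Those inside a gene on the same strand had the highest median fold change. Of the 35, both CPI-455 libraries lay above both vehicle libraries for 30, and of the 29 tested, 23 were called higher and 1 lower, and the median was 2.67. Between genes, 24 of 48 lay above in both libraries, and 6 of 37 tested were called higher and 2 lower, and the median was 0.81. On the opposite strand the median was 1.18, with 10 of 24 tested called higher and 1 lower. Where exon bases were shared it was 0.93, with 6 of 14 called higher and 0 lower. The shares called higher were 79.3% on the same strand, 41.7% on the opposite strand, 42.9% with shared exon bases and 16.2% between genes. Over all tested genes it was 21.0%, so the members between genes lay below this share. Both CPI-455 libraries lay above both vehicle libraries for 37.1% of genes with at least 20 counts. The filter bears on the shares called higher, because it let some members through only by the CPI-455 libraries, and these had to differ. They were 19 of 29 on the same strand, 5 of 24 on the opposite strand, 1 of 14 with shared exon bases and 7 of 37 between genes.

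With the trend removed, the same-strand members kept a median of 1.11, and 12 of them were called higher and 3 lower. The members between genes turned to −0.63 and those on the opposite strand to −0.17. Of the 29 same-strand members, 19 had passed the filter only through the CPI-455 libraries. Leaving out 1 vehicle library lowered the same-strand count of 23 to 10 (without replicate 1) or 13 (without replicate 2), with medians of 2.48 and 2.31. In the same order the 6 called higher between genes became 3 and 2, and 14 without CPI-455 replicate 2, where CPI-455 replicate 1 left out gave 10. On the opposite strand the 10 became 5 and 5, and 16 without CPI-455 replicate 2.

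**Figure D4:**
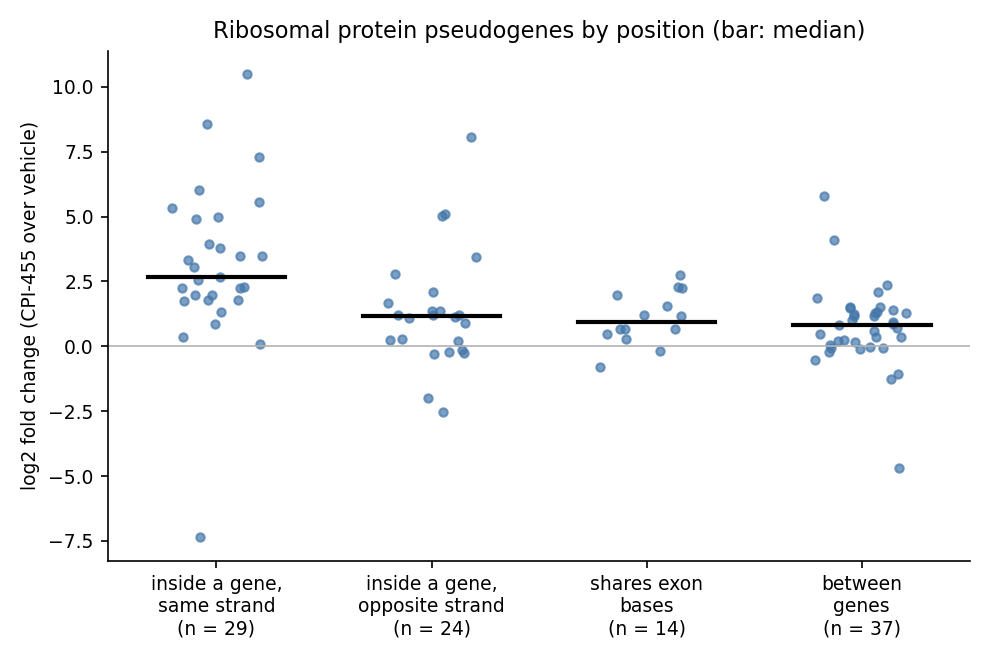
Log2 fold change (CPI-455 over vehicle) of the tested members by their position relative to other annotated genes, with 1 circle per pseudogene and a bar at the median. The medians are 2.67 inside a gene on the same strand, 1.18 on the opposite strand, 0.93 with shared exon bases and 0.81 between genes, and members at 0 in a group are drawn at fitted values.

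With the length and GC trend left in, the genes that contain these pseudogenes had lower fold changes than the pseudogenes. The same-strand members had a median of 1.11 with the trend removed, and values of the containing genes under that setting are not given. For 26 tested same-strand members the containing gene was tested too, and its median log2 fold change was −0.42, with 1 called higher and 8 lower. The pseudogene lay above its containing gene in 25 of the 26 pairs. Of these 26 pseudogenes, 19 passed the filter only through the CPI-455 libraries and 1 only through the vehicle libraries, and such members had to differ. Of the other 6, all 6 lay above. The exception was RPL39P16, at 28 and 34 counts with vehicle and 0 in both CPI-455 libraries, in CCDC138. Counting assigns a fragment by the exon bases it covers, so a fragment from an intron of an unspliced transcript would be counted for a pseudogene that lies there. Strand was not used in counting, so the same holds for pseudogenes on the opposite strand of the containing gene. The part of such fragments was not tested.

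RPL29P14 had the largest difference. It lies at chr5:149545383-149545810 on the minus strand, in the span of CSNK1A1, the gene of casein kinase 1 alpha, on the same strand and without shared exon bases. It had 0 counts in both vehicle libraries and 148 and 42 with CPI-455, which are 16.6 and 8.33 CPM. Against a limit of 3 counts in each vehicle library it was at least 89.4-fold higher (adjusted p = 1.97e-05, edgeR quasi-likelihood test). It passed the filter only through the CPI-455 libraries and so had to differ. CSNK1A1 had 3190 and 3673 counts with vehicle, against 472 and 315 with CPI-455, and fell by 1.47 on the log2 scale. RPL29, a large-subunit protein and the parent, rose by 1.17. The pseudogene is 79.9% identical to RPL29, and 99.2% of its windows of 50 bases were absent from the RPL29 transcripts.

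RPL19P6 had the same form. It lies at chr3:142043623-142044198 in TFDP2, the gene of an E2F partner protein, on the same strand. It had 4 and 4 counts with vehicle, against 89 and 42 with CPI-455, and rose by 5.56 ± 0.52 on the log2 scale (adjusted p = 1.73e-05, edgeR quasi-likelihood test). It too passed the filter only through the CPI-455 libraries. TFDP2 fell by 1.31, from 4134 and 4857 counts to 772 and 413. RPL19, a large-subunit protein that forms a bridge between the subunits, changed by 0.62, less than 2-fold.

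The other 3 tested members at 0 in both vehicle libraries were also called higher, and RPL7AP66 and RPL36AP4 were named after their values were seen. RPL7AP66, at chr18:39334872-39335672 in the noncoding gene MIR924HG, had 32 and 15 counts with CPI-455 and was at least 23.5-fold higher. RPL13AP9 had 15 and 5 and was at least 9.59-fold higher. RPL36AP4, at chr14:93244010-93244323 on the strand opposite to BTBD7, had 19 and 13 and was at least 16.9-fold higher. These 3 also passed the filter only through the CPI-455 libraries. RPL13AP9 sits at the count minimum, and its call was lost without vehicle replicate 1 (adjusted p = 0.0872, edgeR quasi-likelihood test) or 2 (0.0948).

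The same-strand members of low identity stood furthest from vehicle. There were 15 of them, of which 13 were tested, 12 called higher and 1 lower, and 12 had passed only through the CPI-455 libraries. Their median was 3.93, or 3.79 with members at 0 set at their bound. Summed over the 15, the level was 3.50 and 4.26 CPM with vehicle, against 50.5 and 34.5 CPM with CPI-455. All 35 same-strand members summed to 124 and 143 CPM with vehicle, against 323 and 299 with CPI-455.

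**Figure D5:**
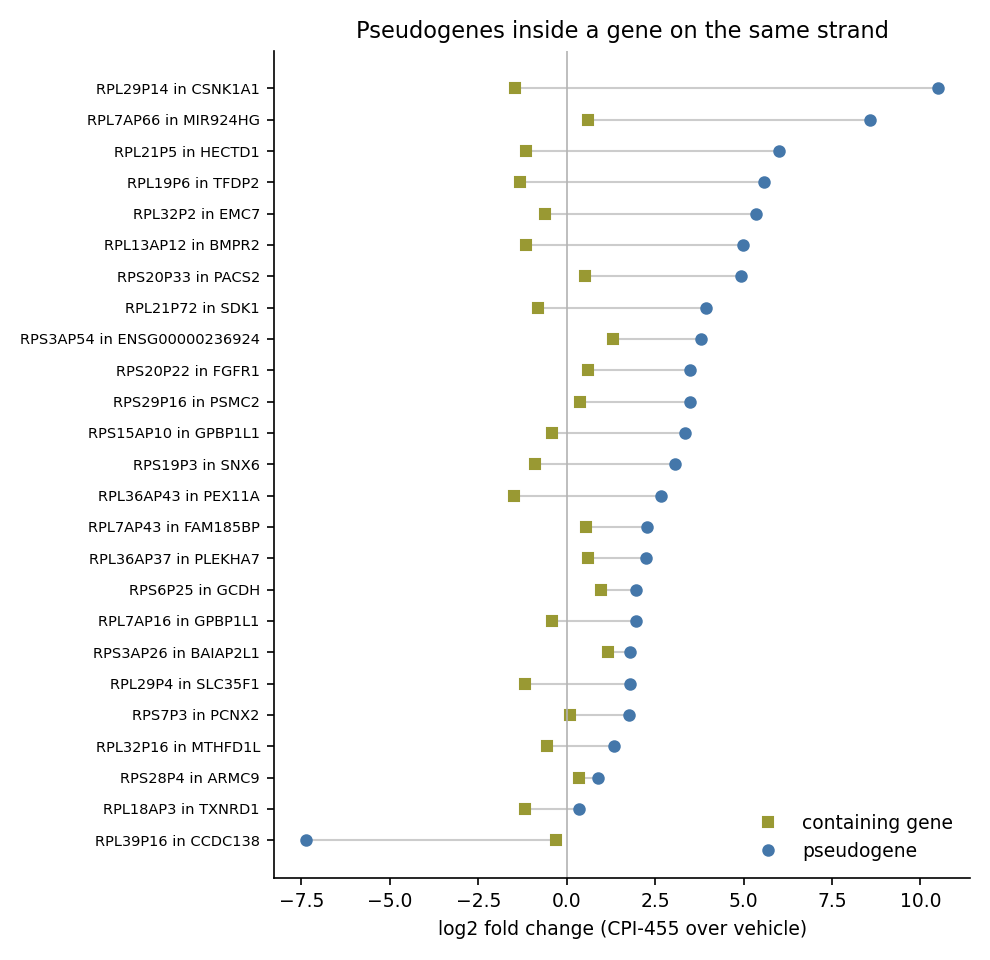
Log2 fold change (CPI-455 over vehicle) of 25 tested pseudogenes (circles) and of the gene on the same strand that contains each (squares), joined by a line, with 1 further pair not drawn. The circle lies to the right of the square in 24 of the 25 pairs, and circles of members at 0 in a group are drawn at fitted values that are not bounds.

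Pseudogenes of other parents had their highest median fold change inside a gene on the same strand as well. Among 367 other processed pseudogenes with at least 20 counts, 266 were tested, of which 102 were called higher and 33 lower, with a median of 0.85. Inside a gene on the same strand, 68 were tested, 47 called higher and 5 lower, with a median of 2.97, and 1.84 with the trend removed. Between genes, 77 were tested, 19 called higher and 13 lower, with a median of 0.20. The shares called higher were 69.1% on the same strand and 24.7% between genes, against 21.0% of all tested genes. Leaving out either vehicle library lowered the 47 to 24, and at least 10 counts in every library left 10 called higher. The difference between these pseudogenes and those of ribosomal proteins was not tested.

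Single families varied around their parents. The 7 pseudogenes of RPL21, a large-subunit protein, gave 6 tested members, of which 5 were called higher. The lowest was 1.17, beside 2.00 for RPL21. RPL21P118 rose by 2.73 ± 0.55, from 17 and 17 counts to 33 and 36 (adjusted p = 0.00202, edgeR quasi-likelihood test), but shares exon bases with another gene. Its call was lost with the trend removed, at 1.24 with an adjusted p of 0.0723.

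The 8 pseudogenes of RPL23A, a protein at the tunnel exit, lay below their parent in all 7 tested cases. RPL23A had a log2 fold change of 1.50, and its copies ran from −2.53 to 1.38, with 1 called in each direction. RPL23AP82, which shares exon bases with RABL2B, had 336 and 370 counts with vehicle, against 128 and 72 with CPI-455, or 15.9 and 16.9 CPM against 14.4 and 14.3. Its log2 fold change of −0.20 was not called, and the ratio to RPL23A was 3.25 and 3.16 per 100 counts against 1.02 and 0.965. Only 12.4% of its 4250 exon bases aligned to RPL23A. RPL23AP53 had 49 and 65 counts with vehicle, against 1 and 17 with CPI-455, where the CPI-455 libraries disagreed and leaving out replicate 2 moved its value from −0.81 to −4.51.

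The 6 copies of RPL13A, all tested, spread widely. RPL13A changed by 0.21 and was not called, while 3 of its copies were called higher. RPL13AP25 had 32 and 33 counts with vehicle, against 15 and 31 with CPI-455, and its log2 fold change of 1.30 missed the threshold (adjusted p = 0.104, edgeR quasi-likelihood test). Its value was 2.00 without CPI-455 replicate 1 and 0.11 without CPI-455 replicate 2, so the rise rested on replicate 2. The 5 tested copies of RPL7A ran upward from 0.92, beside 1.30 for RPL7A, and 4 were called higher. The 5 tested copies of RPS3A, a small-subunit protein, ran from −0.22 to 3.79 beside 1.02, and 2 were called higher.

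RPS3AP26 was one of these RPS3A copies. It lies in BAIAP2L1 on the same strand, had 109 and 163 counts with vehicle, against 184 and 118 with CPI-455, and rose by 1.80 ± 0.26 (adjusted p = 0.000249, edgeR quasi-likelihood test), while BAIAP2L1 rose by 1.17. With the trend removed RPS3AP26 stood at 0.93, under 2-fold. RPS3AP6, between genes, had 203 and 214 counts against 129 and 75, a log2 fold change of 0.60 that was under 2-fold. RPL26P19, a copy of the large-subunit gene RPL26 between genes, had 19 and 20 counts with vehicle, against 39 and 25 with CPI-455 and rose by 2.35, beside 1.49 for RPL26. Its call did not hold without vehicle replicate 1 (adjusted p = 0.0543) or 2 (adjusted p = 0.0577) in edgeR's quasi-likelihood test, nor with the length and GC trend removed, at 0.83 (adjusted p = 0.181). RPL41P5 had 38 and 21 counts against 57 and 50 and rose by 2.54. RPL3P4, a copy of RPL3, a protein of the peptidyl transferase centre, had 145 and 174 counts against 122 and 75, with a log2 fold change of 0.94 beside 0.06 for RPL3. With the trend removed RPL3P4 turned to −0.80 (adjusted p = 0.020, edgeR quasi-likelihood test) and RPL3 was at 0.12.

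Only 4 members were called lower, and all are large-subunit copies. RPL23P2, at chr21:28997613-28998033 between genes, had 139 and 121 counts with vehicle, against 26 and 14 with CPI-455. It fell by 1.08 on the log2 scale (SE 0.36, adjusted p = 0.0248, edgeR quasi-likelihood test), while RPL23 rose by 1.93. This call did not hold with DESeq2 (adjusted p = 0.133) or without vehicle replicate 1 (0.306) or 2 (0.163). RPL39P16 was at least 3.09-fold lower. RPL13P8 went from 36 and 51 counts to 1 and 0, and RPL23AP64 from 33 and 39 to 3 and 1. These last 3 passed the filter only through the vehicle libraries and were named after their values were seen. Without vehicle replicate 1 the test called 1 member lower, and without vehicle replicate 2 it called 0.

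Other members lay below their parent without being called. RPS16P9, a copy of the small-subunit gene RPS16, had 81 and 74 counts with vehicle, against 30 and 7 with CPI-455, a log2 fold change of −0.52 beside 0.98 for RPS16. RPL31P46 had 122 and 112 counts against 66 and 25, a log2 fold change of 0.21 beside 2.42 for RPL31, a protein at the tunnel exit.

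The values at the count minimum were small. Just inside it, at 20 counts, RPL13AP9 had 0, 0, 15 and 5 counts in vehicle replicates 1 and 2 and CPI-455 replicates 1 and 2. In the same order RPS17P9 had 3, 0, 17 and 0, and RPS29P16 had 2, 2, 11 and 5. Just outside it, RPL21P132 had 10, 6, 3 and 0 counts, RPS3AP37 had 0, 0, 19 and 0, and RPL23AP2 had 6, 3, 5 and 4. Of the 134 members, 30 were not tested, with 20 to 41 counts each. In the fit without a filter 23 of these 30 were above 0, with a median of 1.54.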

How the data were processed

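The authors trimmed the reads (Trim Galore), aligned them with STAR on GRCh38, and used featureCounts v1.5.0-p1 with the annotation of Ensembl release 83. Each deposited file holds the raw fragment counts of 1 library. Per the file headers strand was not used, and fragments that aligned to several places or overlapped several genes were left out. How RNA was selected is not given in the sources used here.

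Groups came from the sample labels, 2 libraries each. Counts were compared with edgeR 4.0.16 in R 4.3.3 (TMM, filterByExpr at a minimum of 10 counts, glmQLFit and glmQLFTest, no covariate). Genes were called at a Benjamini-Hochberg adjusted p under 0.05 over all tested genes and at least 2-fold change. TMM factors were 1.08 and 1.06 (vehicle) and 0.936 and 0.936 (CPI-455). Symbols were matched for 56558 genes, types and transcripts came from GENCODE release 44, and exons were aligned to parent transcripts with Biopython 1.88. The length and GC trend was fitted with mgcv 1.9.3. Alternatives included DESeq2 1.42.0.

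The members and lists were chosen with earlier results of these data known. The rule named the 10 highest members, the 6 called members with the largest change and the 6 pairs farthest from the parent in each direction, all of these with at least 100 counts, the 3 members nearest the minimum on each side, and families with at least 5 tested members. The 79 listed ribosomal protein genes include the parents. RPSA and RPLP copies are not covered by the naming rule. The labels and the study's methods give different DMSO concentrations, and none is printed. Some genes and sequences are not reported here.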

Additional observations from a re-analysis of the deposited data

How the results depend on the processing

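Same-numbered deviations from the group means correlated at 0.04, which with 2 libraries per group cannot show whether the replicates were paired. With the replicate number as a block, 39 members were called higher and 4 lower, with a median of 1.22, and no count of the members moved by over 1.5 times. Upper-quartile scaling shifted the median of all tested genes by 0.17 and library totals alone by −0.19. With upper-quartile scaling the medians were 1.40 for members, 1.47 for parents and 3.14 for other same-strand pseudogenes, with 10 members between genes called higher. With library totals alone they were 1.04, 1.11 and 2.78. Without the filter the medians were 1.14 for parents, 2.13 for same-strand members and 2.37 for other same-strand pseudogenes. With at least 10 counts in every library 24 members were called higher and 1 lower, the parents' median was 1.34, and of the same-strand members 5 were called higher with a median of 1.84, and of other same-strand pseudogenes 10 with 1.55. These lower counts come with fewer members tested. The likelihood-ratio test called 12 members between genes higher. DESeq2 called 2 members lower, with same-strand medians of 2.25 for members and 2.50 for others. Members with at least 100 counts had a median of 0.94, and of those not passing through 1 group alone 18 were called higher and 1 lower.

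With the length and GC trend removed, 18 members were called higher and 16 lower, and with the replicate block added 15 and 16. Over all genes these counts were 3618 and 3263, and 3366 and 3224 with the block. The medians under these settings were −0.0627 and −0.0546 for members, 1.12 and 1.12 for parents, 1.11 and 1.05 for same-strand members (12 and 10 called higher), −0.17 and −0.16 on the opposite strand (3 and 3), −0.63 and −0.67 between genes (2 and 1) and 1.84 and 1.77 for other same-strand pseudogenes (30 called higher with the block). The median difference from the parent was −1.32 and −1.31. The log2 fold changes that turned under these settings were −0.0669 and −0.0647 for RPL13A, −0.19 and −0.40 for RPL13AP25, 0.17 and 0.17 for RPL23AP82, −0.0513 and −0.0881 for RPL31P46, −0.0247 and −0.0241 for RPL39P3, −0.80 and −0.78 for RPL3P4, −2.41 and −2.37 for RPL41P1, −0.29 and −0.29 for RPL41P5, −1.39 and −1.38 for RPS28P7, −1.10 and −1.08 for RPS2P46, and −0.23 and −0.22 for RPS3AP6. The cause was not tested. RPL3 was at −0.12 with library totals and −0.0905 without the filter, RPS2P46 at −0.10 and −0.0635, and RPS2P5 at 0.052 with upper-quartile scaling.

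Leaving out 1 library in turn, with a lone library assumed to vary like the other group, gave 21 (without vehicle replicate 1) to 59 (without CPI-455 replicate 2) members called higher, 0 to 8 lower, and a median of 1.09 to 1.55. The parents' median was 1.20 to 1.29. Called higher were 10 to 23 same-strand members with a median of 2.25 to 2.52, 5 to 16 on the opposite strand with 0.71 to 1.44, 2 to 14 between genes with 0.47 to 1.03, and 24 to 55 other same-strand pseudogenes with 1.80 to 3.40. The median difference from the parent was −0.37 to 0.23. Over all genes 2493 to 4086 were called higher and 3084 to 4512 lower. Values ran from −4.51 to 0.33 for RPL23AP53, −0.16 to 0.40 for RPL31P46, −0.0459 to 0.13 for RPL3 and −0.11 to 0.20 for RPS2P46. The values of single named genes under the alternatives were sorted together with the counts called lower by position. Of these, 532 were unchanged, meaning direction and side of the threshold for genes and a change within 1.5 times for counts. Among gene values, 34 fell below the threshold, 11 rose past it and 33 changed direction. The other 26 were counts that moved by over 1.5 times. Depth limits members of few counts most, in the CPI-455 libraries.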
